A study of Homo sapiens with 12 samples.

Results

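The genes that carry glucose and fructose into the cell, break glucose down to pyruvate and lactate, and branch from it into the pentose phosphate pathway were followed in MV4-11 cells, a human acute myeloid leukemia cell line. They are 34 genes, listed by symbol, and all 34 were found among the 43876 genes of the deposited table. The list was drawn up with results of these data known, and SLC2A5 was put on it because it had been seen lower with Gilteritinib than with Mitoxantrone. The 4 conditions, each of 24 h, were 20 nM Mitoxantrone, a topoisomerase inhibitor, 25 nM Gilteritinib, an inhibitor of the FLT3 kinase, the Combination of 20 nM of each, and DMSO, the solvent control. Each condition had 3 libraries, numbered 1 to 3, and no source used here says whether a number marks a separate culture, so p-values measure only the spread between these libraries. The labels call the first drug Mitoxantrone and the paper a liposome form of it. The labels give the genotype as Wild-type, while the paper counts the line among those with FLT3-ITD. It is 1 cell line, and gilteritinib was lower in the Combination than alone, so that the Combination is not the sum of the single treatments.

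Glucose enters through transporters of the SLC2A family, is trapped by hexokinases, and is committed to glycolysis at phosphofructokinase, which the PFKFB enzymes tune through fructose 2,6-bisphosphate. The lower steps yield ATP and pyruvate, which becomes lactate or enters the mitochondrion, and the pentose phosphate branch supplies NADPH and ribose. Several of these genes are textbook targets of the hypoxia-inducible factors, and leukemia cells are known for a high use of glucose. SLC2A5 encodes a fructose transporter.

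Library number set the libraries apart before any drug did. Depth, recovered from the steps that single fragments make in the FPKM values (fragments scaled to the length of the gene and the size of the library), was about 31700000 to 41300000 fragments per library. The first principal component of the 18574 genes tested, with 41.9% of the variance, separated replicate 1 of every condition from replicates 2 and 3, and 39.6% of genes differed between them (limma, Benjamini-Hochberg adjusted p under 0.05). Mitochondrial genes took 1.64% and 1.88% of all FPKM in Gilteritinib 1 and Combination 1, against 3.19% to 4.40% in the other libraries. What replicate 1 stands for was not tested. Of 12 myeloid markers 11 were at 1 FPKM or more in each library. The sum of all 12 was 981 to 1049 FPKM in replicates 2 and 3 of all conditions and 1106 to 1822 in replicate 1. LYZ was 686 to 1333 in replicate 1 against 490.4 to 596 elsewhere. Without LYZ the sum was 419.5 to 488.3 in replicate 1 and 441.9 to 510.2 in replicates 2 and 3, so the higher sum in replicate 1 rested on LYZ. Mitoxantrone 2 and 3 lay above all other libraries for 4 of the 12, FLT3, MEIS1, CSF1R and ITGAM, and the share of all genes with this order was not counted. For FLT3 and MEIS1 the gap was small. FLT3 was at 170.7 and 170.0 FPKM in Mitoxantrone 2 and 3 and at 131.7 to 169.1 in the other 10. MEIS1 was at 43.34 and 43.26 in Mitoxantrone 2 and 3 and at 32.90 to 42.02 in the other 10. CSF1R was at 40.6 and 41.1 FPKM there and at 11.4 to 24.8 in the other 10, and ITGAM at 4.82 and 4.59 against 0.503 to 1.87. The part of these markers in the results was not tested. CD33 ranged from 17.9 to 27.6, and of the markers of other cell types given here HBB reached 2.85 and 8 more no more than 0.0894.

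Among the 32 members tested, those that reached an FPKM of 1 in 3 or more libraries, 17 were lower and 1 was higher in replicate 1 than in replicates 2 and 3, where 39.6% of all genes passed. The median difference of the members was -0.19 on the log2(FPKM + 1) scale, against 0.09 over all genes tested. SLC2A5, SLC2A3 and ALDOC had the largest ones, at -1.07 ± 0.04 (SE), -1.47 ± 0.23 and -1.46 ± 0.24, with adjusted p of 3.4e-06, 0.0012 and 0.0014. TALDO1, transaldolase, was the 1 member higher in replicate 1, by 0.13. Each comparison of conditions is therefore given with all 12 libraries and again with the 8 libraries of replicates 2 and 3. In the latter, each condition has 2 libraries and the fit 4 residual degrees of freedom.

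The sequences upstream of some of the members raised in Mitoxantrone 2 and 3 are shown first, to place the genes in the genome. The 250 bases before the RefSeq start are from GRCh38.p14, 5′ to 3′ on the gene's strand, with ACGTG and GCGTG on either strand, the core of the element that hypoxia-inducible factors bind, in capitals. ALDOC lies at chr17:28576896-28577145 on the minus strand, ENO2 at chr12:6914330-6914579 on the plus strand, PFKFB4 at chr3:48556804-48557053 on the minus strand and BNIP3 at chr10:131981924-131982173 on the minus strand. PGD, at chr1:10398814-10399063 on the plus strand, and SLC2A5, at chr1:9069636-9069885 on the minus strand, are shown because the 3 Mitoxantrone libraries of the former lay above all others and the latter was the gene the list was chosen for.
ALDOC: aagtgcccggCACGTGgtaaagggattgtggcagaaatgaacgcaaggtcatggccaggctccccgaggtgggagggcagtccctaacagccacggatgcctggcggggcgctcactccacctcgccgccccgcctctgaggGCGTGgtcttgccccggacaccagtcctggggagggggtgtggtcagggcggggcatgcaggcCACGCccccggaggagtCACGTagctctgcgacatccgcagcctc
ENO2: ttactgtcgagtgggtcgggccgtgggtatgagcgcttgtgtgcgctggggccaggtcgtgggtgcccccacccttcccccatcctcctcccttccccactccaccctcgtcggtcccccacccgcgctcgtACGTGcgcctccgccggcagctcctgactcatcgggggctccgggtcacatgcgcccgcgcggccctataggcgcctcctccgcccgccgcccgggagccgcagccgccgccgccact
PFKFB4: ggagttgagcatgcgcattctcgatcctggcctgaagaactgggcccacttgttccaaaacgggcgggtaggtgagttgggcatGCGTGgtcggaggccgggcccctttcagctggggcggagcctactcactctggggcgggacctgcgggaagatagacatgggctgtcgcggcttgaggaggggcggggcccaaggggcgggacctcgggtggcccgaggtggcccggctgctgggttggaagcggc
BNIP3: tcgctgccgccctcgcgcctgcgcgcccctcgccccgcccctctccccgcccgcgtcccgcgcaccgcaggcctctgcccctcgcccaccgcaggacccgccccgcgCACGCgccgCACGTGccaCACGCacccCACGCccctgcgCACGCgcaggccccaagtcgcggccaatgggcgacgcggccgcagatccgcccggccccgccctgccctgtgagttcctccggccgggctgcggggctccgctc
PGD: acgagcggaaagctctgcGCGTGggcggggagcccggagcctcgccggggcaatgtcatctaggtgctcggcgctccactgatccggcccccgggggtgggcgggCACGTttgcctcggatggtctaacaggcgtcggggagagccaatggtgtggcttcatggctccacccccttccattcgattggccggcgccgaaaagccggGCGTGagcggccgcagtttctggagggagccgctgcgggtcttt
SLC2A5: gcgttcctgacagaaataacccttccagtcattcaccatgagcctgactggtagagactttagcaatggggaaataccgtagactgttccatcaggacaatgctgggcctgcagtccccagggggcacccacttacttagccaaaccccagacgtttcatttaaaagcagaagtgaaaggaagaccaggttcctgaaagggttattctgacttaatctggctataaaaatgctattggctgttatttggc
ALDOC holds 5 matches, BNIP3 6, PGD 3, ENO2 and PFKFB4 1 each, and SLC2A5 none of these letters, with overlapping matches on the opposite strands at CACGTG counted as 2. The windows also differ in their share of G and C, 81.6% for BNIP3, 68% to 74% for ALDOC, PGD, ENO2 and PFKFB4, and 46.8% for SLC2A5. The part of this share in the numbers of matches was not tested. A match to either core was present in 43.2% of all 35116 windows of this length and in 31 of the 60 windows of members (51.7%). ACGTG alone was in 18.5% of all windows and 35.0% of the members' windows, and GCGTG in 32.2% and 31.7%. The E-box CACGTG, which holds ACGTG, was in 6.34% and 11.7%. Of the 34 members, 31 had at least 1 window, several with more than 1 start. SLC2A3, which was also raised in Mitoxantrone 2 and 3, had no window. PGK1, GPI and PKM, higher with Mitoxantrone in replicates 2 and 3, are not shown. The windows of PGK1 and GPI hold a match to a core and that of PKM holds none. A match is a string of letters, and no binding was measured.

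Levels are compared in FPKM, a scale per length of gene. GAPDH and ENO1, enzymes of the lower glycolytic steps, were the highest, at 793 to 1065 and 559 to 840.4 FPKM over the 12 libraries. TPI1, PKM, PGAM1, TALDO1, GPI, PGK1 and PGD followed, from 87.8 to 300.2 FPKM. SLC2A1, the main glucose transporter of blood cells, lay at 28.3 to 50.4, HK2 at 19.9 to 27.7 and PFKL, the leading phosphofructokinase, at 35.8 to 42.0. The 34 genes summed to 0.758% to 0.987% of all FPKM, with means of 0.845% ± 0.075 (SD, n = 3) in DMSO and 0.913% ± 0.099 in Mitoxantrone.

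**Figure D1:**
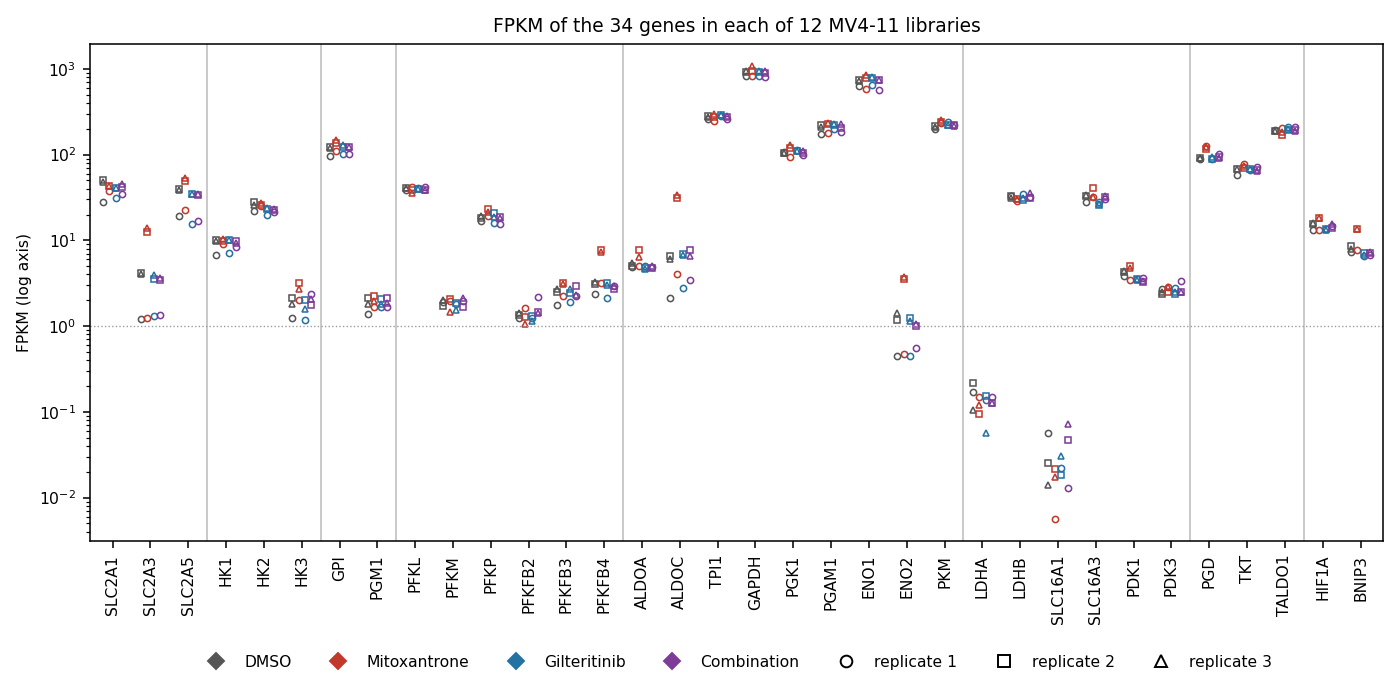
FPKM (log axis) of the 34 genes in the 12 libraries, with colour for the condition, symbol shape for the replicate number, and grey lines between the groups by role. GAPDH and ENO1 lie at the top, LDHA and SLC16A1 lie below 1 in all libraries, and SLC2A3, ALDOC, ENO2 and PFKFB4 show a pair of Mitoxantrone libraries above the rest.

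LDHA, the lactate dehydrogenase subunit of most glycolytic cells, was listed at 0.0573 to 0.216 FPKM and SLC16A1, a lactate transporter, at 0.00570 to 0.0726, so neither was tested. The processed pseudogene LDHAP2, looked up after its values were seen, was listed at 15.3 to 19.5 FPKM, and how reads of the 2 loci were divided was not tested. ALDOA, at 4.68 to 7.63 FPKM, shares 42.3% of its annotated exon bases with AC093512.2 on the same strand, and LDHB shares 33.4% with AC010197.2. The levels of these 4 genes are therefore uncertain. Within a family, HK2 gave 65.6% to 73.1% of hexokinase FPKM, PFKL 60.2% to 70.5% of phosphofructokinase FPKM and ENO1 99.5% to 99.9% of the enolase pair, in every library.

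Mitoxantrone against DMSO asked what the cytotoxic drug alone did. In replicates 2 and 3, 10 members were higher with Mitoxantrone: ALDOC, SLC2A3, ENO2 and PFKFB4 by 5.06-, 3.23-, 2.80- and 2.39-fold in the ratio of mean FPKM, and BNIP3, PGD, SLC2A5, PGK1, GPI and PKM by 1.16- to 1.63-fold. SLC2A1 had a ratio of 0.873. It was the most abundant of the 3 transporters except in Mitoxantrone 2 and 3. There SLC2A1 was at 43.1 and 43.0 FPKM and SLC2A5 at 49.3 and 52.8. The 10 were those of 32 members past an adjusted p of 0.05 in replicates 2 and 3, all higher, where 6.41% of all genes passed. Without SLC2A5, which was chosen on the Mitoxantrone libraries, they were 9 of 31. With median-ratio scaling of the libraries 5 of 32 passed, and without DMSO 3 also 5. With all 12 libraries no member passed (limma, adjusted p under 0.05), nor did any gene (0%). Here 7 members, all higher, had an unadjusted p under 0.05, where 7.9% of all genes did. The median log2 fold change of members was 0.14 against 0.03 over all genes, and 0.14 against 0.02 in replicates 2 and 3. The 9 genes of the lower glycolytic steps lay above 0 in both fits, as did 10595 and 10177 of all genes tested, and TPI1 changed sign with all libraries under median-ratio scaling, from 0.02 to -0.01.

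**Figure D2:**
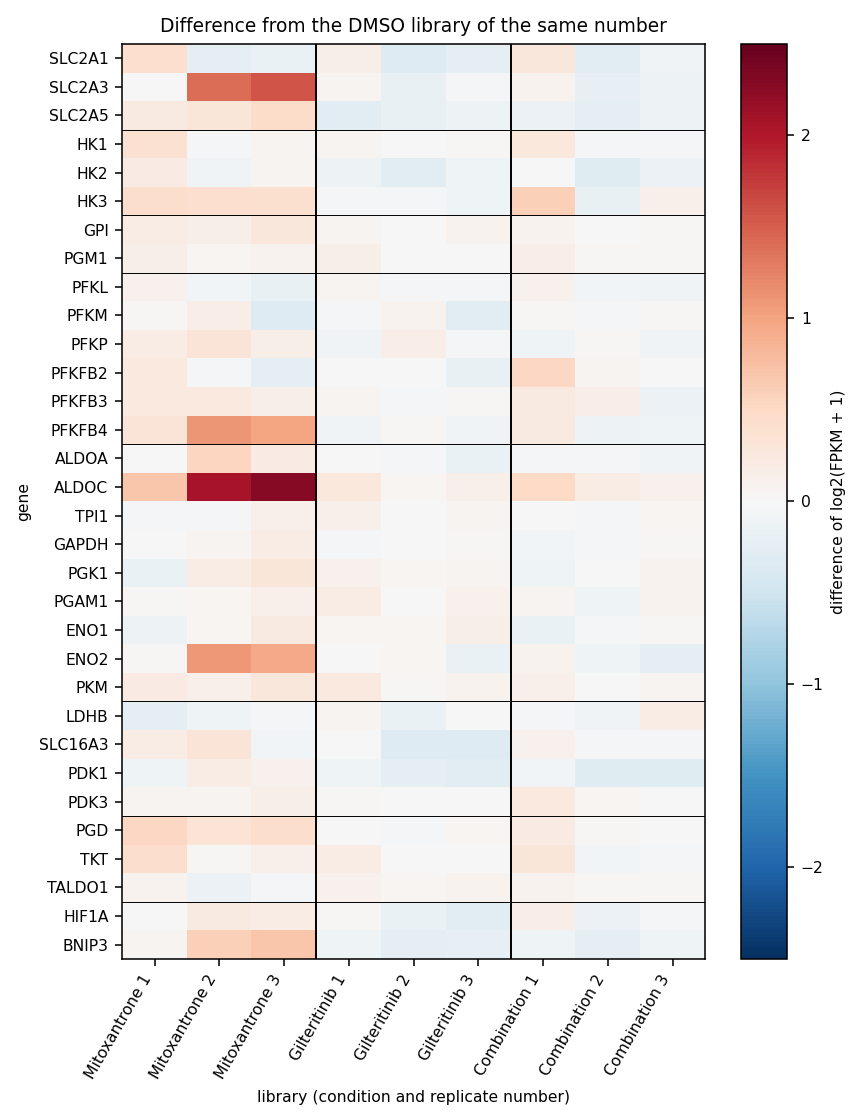
Difference of log2(FPKM + 1) of each of the 32 tested genes from the DMSO library of the same number, in the 9 treated libraries, with red for higher and blue for lower. SLC2A3, PFKFB4, ALDOC, ENO2 and BNIP3 stand out in Mitoxantrone 2 and 3, less so in Mitoxantrone 1, while PGD is above 0 in all 3.

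Among the transporters, SLC2A3 (ENSG00000059804), a high-affinity glucose transporter, was at 1.23, 12.6 and 14.0 FPKM in Mitoxantrone 1, 2 and 3 and at 1.201, 4.16 and 4.06 in DMSO. It was at 1.32, 3.53 and 3.96 in Gilteritinib and at 1.35, 3.47 and 3.64 in the Combination. Mitoxantrone 2 and 3 lay above all other libraries, and Mitoxantrone 1 lay among the other libraries of its number. SLC2A3 rose over DMSO by 1.48 ± 0.08 on the log2 scale (SE, adjusted p = 0.00065, limma) in replicates 2 and 3. The change in replicates 2 and 3 exceeded that in replicate 1 by 1.46 ± 0.16 (adjusted p = 0.019), in a comparison where 1.78% of all genes passed. Replicate 1 has 1 library per condition, so in each such difference between numbers the error comes from replicates 2 and 3 alone, and the division by number was made with the position of replicate 1 known.

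SLC2A5 (ENSG00000142583) was at 22.5, 49.3 and 52.8 FPKM in Mitoxantrone, 15.3, 35.1 and 35.0 in Gilteritinib, 16.97, 33.8 and 34.9 in the Combination and 19.0, 40.0 and 38.2 in DMSO. Replicate 1 was low in all 4 conditions, so that the groups overlapped, and within each number Mitoxantrone was the highest and both conditions with gilteritinib the lowest. Between Gilteritinib and Mitoxantrone this is the difference SLC2A5 was picked for, and no test of it is read. The libraries that choice did not use allow Combination against DMSO, where the log2 fold change was -0.17 ± 0.44 (limma, adjusted p = 1) with all libraries and -0.18 ± 0.04 (adjusted p = 0.39) in replicates 2 and 3, with the Combination lower in 3 of 3 numbers. SLC2A1 went the other way in part: the ratio of Mitoxantrone to DMSO was 1.35 in number 1, 0.854 in number 2 and 0.892 in number 3, and the difference between numbers was -0.61 ± 0.07 (adjusted p = 0.025).

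Of the hexokinases, which trap glucose in the cell, HK3 was at 2.02, 3.17 and 2.70 FPKM in Mitoxantrone, 1.23, 2.12 and 1.79 in DMSO, 1.19, 2.001 and 1.60 in Gilteritinib and 2.36, 1.75 and 2.06 in the Combination. Each Mitoxantrone library was above the DMSO library of its number by 1.497- to 1.64-fold, yet the groups overlapped. For HK3 the log2 fold change was 0.42 ± 0.17 (unadjusted p = 0.036, adjusted p = 0.59). HK1 and HK2 did not pass in either fit. The pair that interconverts glucose phosphates split: GPI rose in replicates 2 and 3 by 0.22 ± 0.05 (adjusted p = 0.049), and PGM1 had 0.07 ± 0.10 there.

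Of phosphofructokinase and its regulators, 1 of 6 rose in replicates 2 and 3, where 6.41% of all genes passed. PFKFB4, a kinase and phosphatase that sets fructose 2,6-bisphosphate, was at 3.18, 7.69 and 7.39 FPKM in Mitoxantrone and at 2.35, 3.07 and 3.23 in DMSO. It was at 2.14, 3.15 and 2.99 in Gilteritinib and at 2.93, 2.73 and 2.91 in the Combination. Mitoxantrone 2 and 3 again lay above all other libraries. The log2 fold change was 1.04 ± 0.08 (adjusted p = 0.0016) in replicates 2 and 3 and 0.80 ± 0.25 (unadjusted p = 0.0078, adjusted p = 0.49) with all libraries. PFKFB4 made up 63.4% and 64.1% of the FPKM of the 3 PFKFB genes in those libraries and 38.4% to 45.4% in the other 10. PFKP, the platelet-type phosphofructokinase, was at 19.4, 23.2 and 21.6 FPKM in Mitoxantrone, 16.9, 18.4 and 19.3 in DMSO, 15.9, 20.6 and 18.6 in Gilteritinib and 15.6, 18.9 and 18.1 in the Combination. The Mitoxantrone and DMSO libraries did not overlap, as for 13.6% of all genes tested. PFKP had 0.24 ± 0.06 (limma, adjusted p = 0.096) in replicates 2 and 3. PFKL, PFKM, PFKFB2 and PFKFB3 lay between -0.13 and 0.20 there, with none past the threshold.

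**Figure D3:**
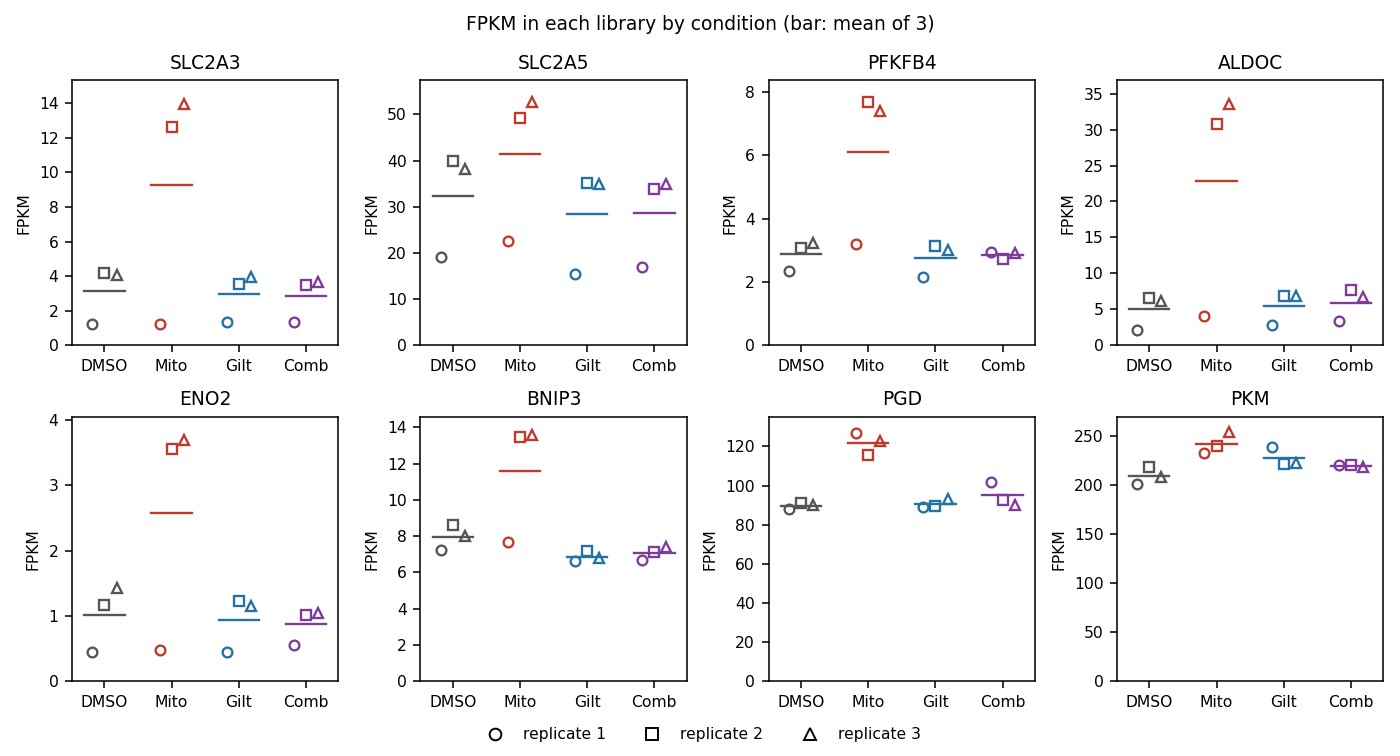
FPKM of 8 genes in each library by condition (Mito, Mitoxantrone; Gilt, Gilteritinib; Comb, Combination), with the symbol for the replicate number and a bar at the mean of 3. For SLC2A3, PFKFB4, ALDOC, ENO2 and BNIP3 the pair of raised points is Mitoxantrone 2 and 3, while for PGD all 3 Mitoxantrone points, at 115 to 127 FPKM, are above the rest.

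In the lower glycolytic steps 4 of 9 rose in replicates 2 and 3, where 6.41% of all genes passed. ALDOC, the brain-type aldolase, was at 4.10, 30.8 and 33.6 FPKM in Mitoxantrone and at 2.14, 6.62 and 6.11 in DMSO. It was at 2.80, 6.85 and 6.78 in Gilteritinib and at 3.42, 7.69 and 6.64 in the Combination. Each Mitoxantrone library was the highest of its number, by 1.91-, 4.66- and 5.49-fold over DMSO. For ALDOC the log2 fold change was 2.17 ± 0.08 (adjusted p = 0.000204) in replicates 2 and 3, 1.68 ± 0.67 (unadjusted p = 0.030, adjusted p = 0.58) with all libraries, and the difference between numbers 1.47 ± 0.15 (adjusted p = 0.017). ALDOC gave 80.2% and 84.1% of the FPKM of the 2 aldolases in Mitoxantrone 2 and 3, against 30.2% to 61.5% in the other libraries, with the uncertainty of ALDOA as above.

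ENO2, the neuronal enolase, was at 0.474, 3.56 and 3.70 FPKM in Mitoxantrone and at 0.452, 1.16 and 1.43 in DMSO. It was at 0.454, 1.23 and 1.15 in Gilteritinib and at 0.553, 1.02 and 1.052 in the Combination. Replicate 1 ranged from 0.452 to 0.553 over the 4 conditions, and the log2 fold change in replicates 2 and 3 was 1.01 ± 0.10 (adjusted p = 0.0051). ENO2 is a low gene, with 46 to 418 fragments per library at the shortest length that makes its values whole. PGK1, which makes the first ATP of glycolysis, rose by 0.24 ± 0.04 (adjusted p = 0.029) in replicates 2 and 3, and its ratios to DMSO were 0.890, 1.14 and 1.24 by number.

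PKM, pyruvate kinase, was at 232, 239.5 and 254 FPKM in Mitoxantrone and at 201, 218 and 208 in DMSO, with no overlap (13.6% of all genes). It was at 238, 221 and 222 in Gilteritinib and at 220.0, 219.9 and 217.9 in the Combination. Both also lay wholly above DMSO, whose highest library was at 217.8, where 6.57% and 5.73% of all genes did not overlap. The log2 fold change of PKM with Mitoxantrone was 0.21 ± 0.04 (adjusted p = 0.041) in replicates 2 and 3 and 0.21 ± 0.06 (unadjusted p = 0.0080, adjusted p = 0.49) with all libraries. ALDOA, the muscle-type aldolase, was at 5.03, 7.63 and 6.36 FPKM in Mitoxantrone, 4.95, 4.95 and 5.398 in DMSO, 4.98, 4.81 and 4.68 in Gilteritinib and 4.83, 4.81 and 5.03 in the Combination. Mitoxantrone 2 and 3 were the highest libraries, and ALDOA had 0.37 ± 0.09 (adjusted p = 0.080). TPI1, GAPDH, PGAM1 and ENO1 lay at 0.05 to 0.14 in replicates 2 and 3, with none past the threshold.

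Pyruvate and lactate genes did not pass in Mitoxantrone against DMSO. PDK1, a kinase that turns off pyruvate dehydrogenase, was at 3.48, 4.995 and 4.76 FPKM in Mitoxantrone, 3.86, 4.29 and 4.37 in DMSO, 3.53, 3.50 and 3.41 in Gilteritinib and 3.63, 3.29 and 3.37 in the Combination. Its lowest Mitoxantrone library was that of replicate 1, which overlapped the other conditions. SLC16A3, the lactate exporter, had a mean of 35.1 ± 5.32 FPKM (SD, n = 3) in Mitoxantrone, 31.5 ± 3.06 in DMSO, 26.9 ± 1.03 in Gilteritinib and 31.5 ± 1.25 in the Combination. LDHB and PDK3 ranged from 28.4 to 35.3 and from 2.36 to 3.38 FPKM over all libraries. LDHB was at 28.4, 30.7 and 30.2 FPKM in Mitoxantrone and at 33.2, 33.2 and 30.8 in DMSO. It was the 1 member whose Mitoxantrone libraries all lay below DMSO, while 4, PFKP, PKM, PGD and TKT, lay wholly above. Of all genes tested, 1096 lay wholly below and 1426 wholly above, together 13.6%.

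Of the pentose phosphate genes, 1 of 3 rose in replicates 2 and 3, where 6.41% of all genes passed. PGD (ENSG00000142657), 6-phosphogluconate dehydrogenase, the second NADPH-yielding enzyme of the pentose phosphate pathway, was at 127, 115 and 123 FPKM in Mitoxantrone and at 87.8, 91.0 and 90.2 in DMSO. It was at 88.8, 89.5 and 93.3 in Gilteritinib and at 102, 92.6 and 90.2 in the Combination. The 3 Mitoxantrone libraries lay above all 9 others, 1.44-, 1.27- and 1.36-fold over DMSO by number. The log2 fold change was 0.43 ± 0.06 (unadjusted p = 3.8e-05, adjusted p = 0.18) with all libraries and 0.39 ± 0.04 (adjusted p = 0.0060) in replicates 2 and 3, and the difference between numbers was -0.14 ± 0.07 (adjusted p = 0.41). TKT, transketolase, was at 78.3, 70.0 and 73.3 FPKM in Mitoxantrone, 57.7, 68.3 and 67.5 in DMSO, 65.9, 68.0 and 68.3 in Gilteritinib and 71.1, 65.5 and 65.0 in the Combination. Its ratio to DMSO was 1.36 in number 1 and 1.02 and 1.09 in numbers 2 and 3, a difference of -0.36 ± 0.06 (adjusted p = 0.043), the reverse of SLC2A3 and ALDOC. TALDO1 had -0.09 ± 0.04 in replicates 2 and 3.

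Of the hypoxia pair, BNIP3, a mitophagy receptor, was at 7.67, 13.5 and 13.5 FPKM in Mitoxantrone and at 7.25, 8.59 and 7.99 in DMSO. It was at 6.62, 7.16 and 6.79 in Gilteritinib and at 6.67, 7.14 and 7.39 in the Combination. Mitoxantrone 2 and 3 were above all other libraries, with a log2 fold change of 0.64 ± 0.06 (adjusted p = 0.0031) in replicates 2 and 3. The 20 listed BNIP3 pseudogenes summed to 34.2 and 22.0 FPKM in these libraries and to 20.0 to 43.2 over all 12, and how reads were divided among the copies was not tested. The difference between numbers did not pass for BNIP3, ENO2 and PFKFB4, with 0.57 ± 0.10, 0.99 ± 0.18 and 0.72 ± 0.14 and adjusted p of 0.057, 0.060 and 0.068. HIF1A, the oxygen-regulated subunit, whose control is mostly on the protein, was at 16.5 ± 2.82 FPKM (SD, n = 3) in Mitoxantrone, 14.8 ± 1.47 in DMSO, 13.4 ± 0.244 in Gilteritinib and 14.8 ± 0.831 in the Combination.

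Gilteritinib against DMSO asked what the kinase inhibitor alone did, and no member passed. With all 12 libraries 0 of 32 passed (limma, adjusted p; 0% of all genes) and 0 had an unadjusted p under 0.05 (1.86% of all genes), with 16 members on either side of 0. Replicates 2 and 3 had 0 past the threshold (0.614% of all genes) and 7 had an unadjusted p under 0.05, all lower, where 11.7% of all genes did. SLC2A1, SLC16A3, PDK1, HIF1A, BNIP3, HK2 and SLC2A5 were the 7, with log2 fold changes of -0.33 to -0.15 and adjusted p of 0.073 to 0.31. SLC2A5 was chosen on the Gilteritinib libraries used here, so its place among the 7 is read as no result. The comparisons of the 3 treatments with DMSO share the DMSO libraries.

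Combination against DMSO gave the same picture of small values. With all libraries 0 members passed (0.00538% of all genes, 1 gene) and 0 had an unadjusted p under 0.05 (1.67% of all genes), with a median of 0.00 against -0.01. Replicates 2 and 3 had 0 past the threshold (0.0485%) and 5 had an unadjusted p under 0.05, all lower, where 7.51% of all genes did, among them PDK1 at -0.30 ± 0.07 (adjusted p = 0.36) and HK2 at -0.22 ± 0.05 (adjusted p = 0.36). ALDOC, the gene most raised by Mitoxantrone, had 0.15 ± 0.08 and SLC2A3 -0.17 ± 0.08 here. Combination against Gilteritinib, in which Mitoxantrone was added and gilteritinib was 20 nM in place of 25 nM, had 0 members past the threshold with all libraries (0% of all genes) and 0 at an unadjusted p under 0.05 (1.63%). Replicates 2 and 3 had 0 (0.0754%) and 1 at an unadjusted p under 0.05 (6.46% of all genes), SLC16A3 at 0.28 ± 0.11.

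Combination against Mitoxantrone asked what the addition of gilteritinib changed, and the members lay lower. In replicates 2 and 3, 9 of 32 passed, all lower (6.13% of all genes): ALDOC by -2.02 ± 0.08, SLC2A3 -1.65 ± 0.08, ENO2 -1.19 ± 0.10, PFKFB4 -1.16 ± 0.08, BNIP3 -0.81 ± 0.06, SLC2A5 -0.56 ± 0.04, PDK1 -0.44 ± 0.07, PGD -0.38 ± 0.04 and HIF1A -0.28 ± 0.06, with adjusted p from 0.000265 to 0.047. Without SLC2A5 they were 8 of 31. With all 12 libraries 0 passed (0% of all genes) and 6 had an unadjusted p under 0.05, all lower (5.53% of all genes): PGD, BNIP3, PFKFB4, ALDOA, PFKP and PDK1. The median was -0.14 against -0.04 over all genes, and -0.18 against -0.03 in replicates 2 and 3. Replicates 2 and 3 and replicate 1 differed for 5 members, ALDOC, SLC2A3, PFKFB4, ENO2 and BNIP3, all lower in the former (1.48% of all genes), with 1 library per condition and no spread of its own on the side of replicate 1.

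Gilteritinib against Mitoxantrone is the contrast behind the choice of SLC2A5, and its counts are a description. With all libraries 0 of 32 members passed (0%) and 10 had an unadjusted p under 0.05, all lower, where 9.52% of all genes did. In replicates 2 and 3, 10 passed, all lower (6.63%), the 9 of the former comparison and ALDOA, and without SLC2A5 they were 9 of 31. With the replicate number as a block the count was 1 (0.0269% of all genes), SLC2A5, which restates its selection and is read as no result. Replicates 2 and 3 differed from replicate 1 for ALDOC, SLC2A3 and BNIP3 (1.79% of all genes). It shares the Mitoxantrone libraries with the former comparison, so their likeness is not separate evidence.

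Whether the effect of Mitoxantrone differed with gilteritinib present was tested by the interaction, Combination minus Gilteritinib less Mitoxantrone minus DMSO. In replicates 2 and 3 it was below 0 and past the threshold for 7 of 32 members and above it for none (2.97% of all genes): ALDOC -2.11 ± 0.11, SLC2A3 -1.54 ± 0.11, PFKFB4 -1.13 ± 0.11, ENO2 -1.12 ± 0.14, BNIP3 -0.59 ± 0.08, SLC2A5 -0.40 ± 0.06 and PGD -0.39 ± 0.06. The value of SLC2A5 is a description, since it was chosen on libraries that enter this contrast. The 7 also passed in Mitoxantrone against DMSO and in Combination against Mitoxantrone. All 3 contrasts use the Mitoxantrone libraries, so their likeness is not separate evidence. Without SLC2A5, 6 of 31 members passed, with adjusted p from 0.0013 to 0.026 (limma). Leaving out Mitoxantrone 3, or any library of Gilteritinib, the Combination or DMSO, left 3, while leaving out Mitoxantrone 2 gave 8. With all 12 libraries 0 members passed (0% of all genes) and 2 had an unadjusted p under 0.05, PGD at -0.37 ± 0.09 and PKM at -0.26 ± 0.09 (2.91% of all genes). The doses of gilteritinib differed in the conditions this contrast joins. In bulk RNA, fewer cells of a kind and less RNA per cell cannot be told apart.

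The other genes of these pathways moved in a few places. Of 16 further hypoxia-response genes tested, 6 rose and 1 fell with Mitoxantrone in replicates 2 and 3, where 6.41% of all genes passed. With all libraries 0 passed (limma), and 3 were higher and 1 lower at an unadjusted p under 0.05. P4HA1, a collagen prolyl hydroxylase, was at 17.8, 36.6 and 36.2 FPKM in Mitoxantrone and at 17.7, 20.9 and 20.8 in DMSO, and rose by 0.78 ± 0.05 (adjusted p = 0.0013). VHL, which marks hypoxia-inducible factors for breakdown, fell by 0.27 ± 0.05 (adjusted p = 0.040). NDRG1 and DDIT4, named after their values were seen, rose by 1.07 ± 0.04 and 0.92 ± 0.05, and DDIT4 was the 1 gene of the list lower with the Combination than with DMSO, at -0.85 ± 0.05 (adjusted p = 0.027) in replicates 2 and 3. In replicate 1 DDIT4 went the other way, at 4.58 FPKM in the Combination and 1.82 in DMSO. Against Mitoxantrone, the Combination had 7 of the 16 lower and 1 higher in replicates 2 and 3 (6.13% of all genes), and with all libraries 0 passed, with 2 lower and 1 higher at an unadjusted p under 0.05. The change of P4HA1 with Mitoxantrone was larger in replicates 2 and 3 than in replicate 1 by 0.77 ± 0.09 (adjusted p = 0.025), and for NDRG1 this difference was 0.42 ± 0.08 (adjusted p = 0.059). ANKRD37 had the smallest unadjusted p of the list with all libraries, in Gilteritinib against DMSO. There it was at -0.54 ± 0.16 (limma, unadjusted p = 0.0072) and did not pass. ANKRD37 was at 1.72, 1.96 and 1.42 FPKM in Mitoxantrone and at 1.73, 2.34 and 2.44 in DMSO, lower in each number.

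Of 11 further genes of glucose entry and glycolysis, 2 rose with Mitoxantrone in replicates 2 and 3, where 6.41% of all genes passed. They were TXNIP, a brake on glucose uptake, by 0.58 ± 0.05 (limma, adjusted p = 0.0024), and its relative ARRDC4, by 0.77 ± 0.09 (adjusted p = 0.0078). Of 19 genes of fructose, galactose, mannose and glycogen use, GBE1, the glycogen branching enzyme, and GFPT1 rose and GALK1, galactokinase, fell in replicates 2 and 3, by 0.40 ± 0.05 (adjusted p = 0.0092) for GFPT1 and -0.30 ± 0.05 (adjusted p = 0.031) for GALK1. With all libraries none of the 3 passed, and GFPT1 was at 10.1 FPKM in Mitoxantrone 1 against 11.3 in DMSO 1. GBE1 was at 24.5, 46.4 and 49.6 FPKM in Mitoxantrone and at 21.9, 27.7 and 27.2 in DMSO, a change of 0.78 ± 0.05 (adjusted p = 0.00099) in replicates 2 and 3. Of 10 further pentose phosphate genes, 13 of pyruvate entry into mitochondria and 9 transcription factors of glycolytic genes, 0 passed in Mitoxantrone against DMSO by either fit, with 4, 3 and 4 at an unadjusted p under 0.05 in replicates 2 and 3, where 21.4% of all genes had one.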

How the data were processed

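RNA-seq values of 12 MV4-11 libraries, 3 per condition, were taken from 1 table in which the authors deposited FPKM per gene with Ensembl identifiers. The submitters' processing notes list Bowtie 0.12.9, Cufflinks 2.1.1, HTSeq, DESeq2 and the mouse build mm10, with no order, while the identifiers are human, so the build and annotation release used are uncertain. The labels name a miRNeasy extraction with Geo-seq amplification. Libraries were grouped by their labels. Values were analysed as log2(FPKM + 1), which understates changes of low genes, for the 18574 genes that reached an FPKM of 1 in 3 or more libraries. They were tested with limma 3.58.1 in R 4.3.3 with a mean-variance trend, all conditions sharing 1 spread, and Benjamini-Hochberg adjustment over all genes tested within each comparison, at 0.05. The step was tested on simulated data with independent noise and no shift of replicate 1. That test therefore cannot show how the fit of all 12 libraries behaves with such a shift. Depth was recovered from whole-fragment steps. Positions were taken from GENCODE 29 by identifier and promoter windows from RefSeq.

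The members and lists were chosen with earlier results of these data known. Values in every library are given for SLC2A5 and for each member with an unadjusted p under 0.05 in any comparison other than Gilteritinib against Mitoxantrone. Of each other list at most 3 genes were to be named, those with the smallest unadjusted p, and LDHAP2, NDRG1, DDIT4 and GFPT1 were added later, with their values known. Across conditions, deviations from the condition means correlated at 0.165 to 0.657 in all 18 pairs of same-numbered libraries. Pairs of different numbers had -0.562 to 0.434, so the ranges overlapped. The separation of replicate 1 enters these values, so they cannot show whether libraries of a number are pairs. What a number stands for is not given in the sources used here. Alternatives were a pseudocount of 0.1, no filter, median-ratio scaling, a filter at a mean FPKM of 5 or more, the replicate block, quantile normalization, replicate 1 as a batch term, replicates 2 and 3 only, only the conditions compared, and each library left out. For replicates 2 and 3, and for the difference between numbers, median-ratio scaling was added once the data had been seen, as was leaving out each library of replicates 2 and 3. Values of some genes on these lists are not reported here.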

Additional observations from a re-analysis of the deposited data

Results flagged for a closer look

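In replicates 2 and 3, a test of whether the response to Mitoxantrone differed with gilteritinib present passed for 6 of 31 members. Of all genes, 2.97% passed. SLC2A5 is given beside the 6, and its value is a description. The interaction was -2.11 for ALDOC (limma, adjusted p = 0.00128), -1.54 for SLC2A3 (0.00251), -1.13 for PFKFB4 (0.00575), -1.12 for ENO2 (0.016), -0.59 for BNIP3 (0.0184), -0.39 for PGD (0.0258) and -0.40 for SLC2A5, which was chosen on libraries that enter this test. With all 12 libraries none of them passed, and 2 of the 32 members, PGD and PKM, had an unadjusted p under 0.05. What sets replicate 1 apart was not tested.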

How the results depend on the processing

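With all 12 libraries, the count of members past the threshold in Mitoxantrone against DMSO, 0, became 1 with replicate 1 as a batch term, 10 in replicates 2 and 3, and 0 to 2 with 1 library left out. In Combination against Mitoxantrone it became 1, 9 and 0 to 2, in Gilteritinib against Mitoxantrone 3, 10 and 0 to 2, and for the interaction 7 in replicates 2 and 3. The 2 in each came without Mitoxantrone 1. The replicate block changed 1 call, giving 1 member in Gilteritinib against Mitoxantrone, SLC2A5, which was chosen on that contrast, and changed no other count of members. The median log2 fold change of members ranged, with 1 library left out, from 0.0627 to 0.21 (Mitoxantrone against DMSO), -0.0761 to 0.0657 (Gilteritinib against DMSO), -0.0727 to 0.0514 (Combination against DMSO), -0.24 to -0.0821 (Combination against Mitoxantrone), -0.22 to -0.12 (Gilteritinib against Mitoxantrone) and -0.24 to -0.0458 (interaction). In Mitoxantrone against DMSO it was 0.121 with no filter on low values and 0.113 with median-ratio scaling, which gave 0.0375 in Gilteritinib against DMSO and -0.0788 in Gilteritinib against Mitoxantrone. The log2 fold change of SLC2A5 changed sign when 1 library was left out: it ranged from -0.00677 to 0.71, -0.53 to 0.18, -0.51 to 0.15 and -0.68 to 0.0339 in Mitoxantrone, Gilteritinib and Combination against DMSO and the interaction, and from -0.35 to 0.35 in Combination against Gilteritinib, where it was -0.00309 with median-ratio scaling and -0.0276 in replicates 2 and 3. Within replicates 2 and 3, median-ratio scaling gave 5 members in Mitoxantrone against DMSO. Within replicates 2 and 3, with 1 library left out, which leaves 1 library assumed to vary like the other conditions, the counts were 5 to 9, 7 to 9, 5 to 9 and 3 to 8 in Mitoxantrone against DMSO, Combination against Mitoxantrone, Gilteritinib against Mitoxantrone and the interaction, and 0 to 1 in Gilteritinib against DMSO, the 1 without Mitoxantrone 2 or 3. The lowest counts came without DMSO 3 for Mitoxantrone against DMSO and without Gilteritinib 3 for Gilteritinib against Mitoxantrone. The causes were not tested.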
